A study of Mus musculus with 8 samples.

Results

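Gastrocnemius mRNA of mice given an extract of Paeonia lactiflora, a peony, was compared with that of mice given water. The comparison used 5 of the series' 8 libraries: the 2 titled RP and the 3 titled Control, chosen by sample title alone. Per the labels, all were C57BL/6 mice, an inbred laboratory strain, and both groups carried tumours of Lewis lung carcinoma, a transplantable line from a mouse lung tumour. Tumours were started with 1000000 cells in 100 µl of saline under the skin, and after 2 weeks mice were assigned to groups of like tumour size. RP mice then received 100 mg/kg of a 30% ethanol extract by mouth in 200 µl of water daily for 2 weeks, and Control mice received water alone. The 3 Normal-titled libraries, from saline-injected mice given water, also entered the filter on low counts and the model's estimate of spread. Their values, or the RP minus Normal-titled contrast, are given beside some of the named genes. The labels list an age of 4 weeks without tying it to a step, and separate animals are not stated for the libraries. The p-values therefore measure the spread between these libraries, which may be technical.

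The labels of 6 libraries conflict. The count tables of the 3 Control-titled samples are named Normal1 to Normal3 in their file names and headers, and those of the 3 Normal-titled samples are named Control. The RP tables match their titles. Under the table names the 3 Control-titled libraries would be tumour-free, and the comparison below would set tumour-bearing mice given the extract against tumour-free mice given water. In that reading the tumour and the extract cannot be told apart, and the Normal-titled libraries would be the untreated tumour-bearing ones. Every direction below is given for the libraries as titled.

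The study asked about NF-kB and the muscle-specific E3 ubiquitin ligases in cancer cachexia, the loss of muscle that accompanies a tumour. E3 ligases attach ubiquitin to proteins and so mark them for the proteasome. Trim63 (MuRF1) and Fbxo32 (atrogin-1) are the classical muscle ligases, switched on in fasting, disuse, glucocorticoid excess and cachexia, largely through FoxO transcription factors. NF-kB is a dimeric transcription factor held in the cytoplasm by IkB proteins, of which Nfkbia is one, and released when the IkB kinase marks them for degradation.

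Libraries held 9528011 and 10082410 counts (RP 1 and 2) and 9989656 to 10564860 counts (Control-titled). The summed level of 11 skeletal muscle markers, such as Acta1 and Myh4, was 125200 and 121300 CPM (counts scaled to library size) in RP and 99230 to 120200 CPM in the Control-titled ones. The 2 RP libraries differed from each other more than the Control-titled libraries did. Of 9713 genes with a mean of at least 5 CPM, 2.37% differed over 2-fold between RP 1 and RP 2, of which 174 were higher in RP 2 and 56 lower. Between pairs of Control-titled libraries the share was 0.607 to 0.793%, and between Control-titled and RP libraries it was 2.2 to 3.54%. Haemoglobin genes took 0.862% of counts in RP 1, 3.83% in RP 2 and 1.41 to 1.61% in Control 1 to 3.

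Of 13174 genes tested with edgeR's quasi-likelihood test, 23 differed at an adjusted p under 0.05, which is 0.175% of genes, with 19 higher in RP (0.144%) and 4 lower (0.0304%). The higher genes included Trim63, the transcriptional coactivator Ppargc1a, the nuclear receptor Nr4a3, the reticulophagy receptor Fam134b, hexokinase Hk2 and the metallothioneins Mt1 and Mt2. The lower genes included the myelin gene Mal, the Wnt receptor Fzd2 and Gkn3. In all 19 higher genes every Normal-titled library was also above every Control-titled one. In 3 of the 4 lower genes every Normal-titled library was below every Control-titled one. The Control-titled libraries enter both comparisons, so the 2 are not independent. How often a gene picked without regard to the test shows this pattern was not counted. The 19 of 19 and 3 of 4 thus have no background to be read against, and nothing is concluded from them. In each of the 23 the RP and Control-titled libraries did not overlap, but that was so for 31.7% of all genes tested. With 2 libraries against 3 an absence of overlap is common, and why the share had this size was not tested. The count varied with the libraries used: it was 56, 12 and 72 without Normal 1, 2 and 3, 15, 8 and 9 without Control 1, 2 and 3, and 30 and 31 without RP 1 and RP 2. Called in all 8 of these fits were 7 genes: Nr4a3, Fam134b, Ppargc1a, Trim63, Hk2, Snai3 and Impact.

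**Figure D1:**
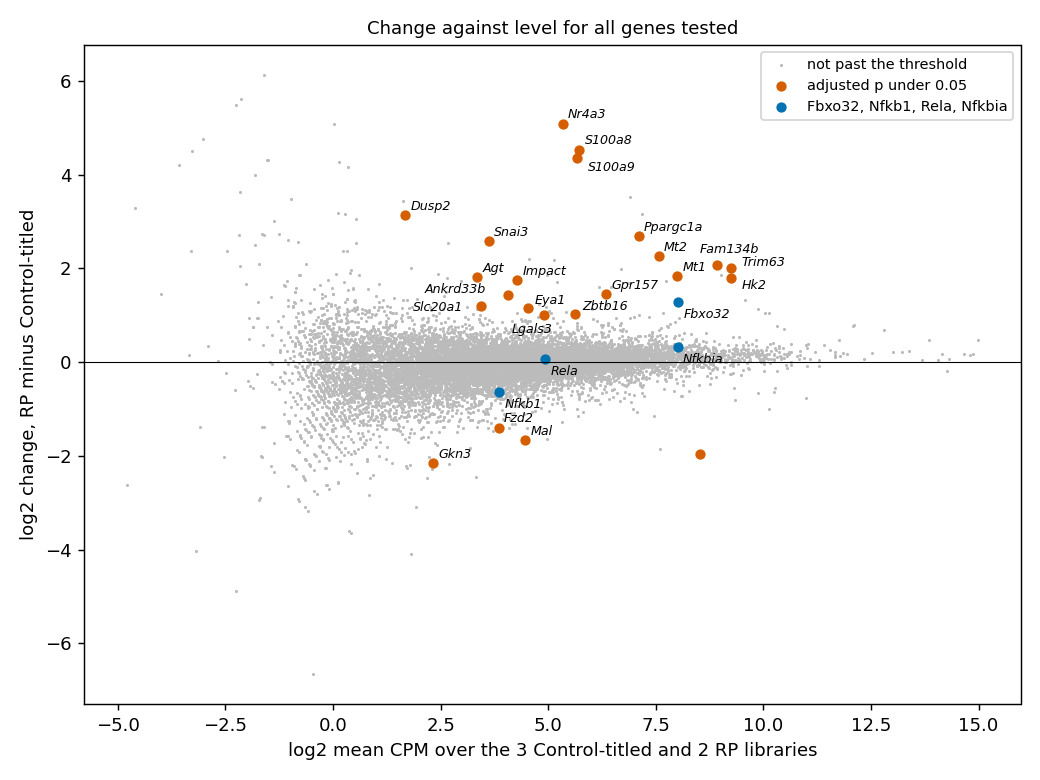
Each point is 1 of 13174 genes, with log2 mean CPM over the 3 Control-titled and 2 RP libraries on the x axis and log2 change (RP minus Control-titled) on the y axis. The 23 genes past the threshold are orange, 22 of them with their names, 19 above the line and 4 below it; Fbxo32, Nfkb1, Rela and Nfkbia, which did not pass, are blue.

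**Figure D2:**
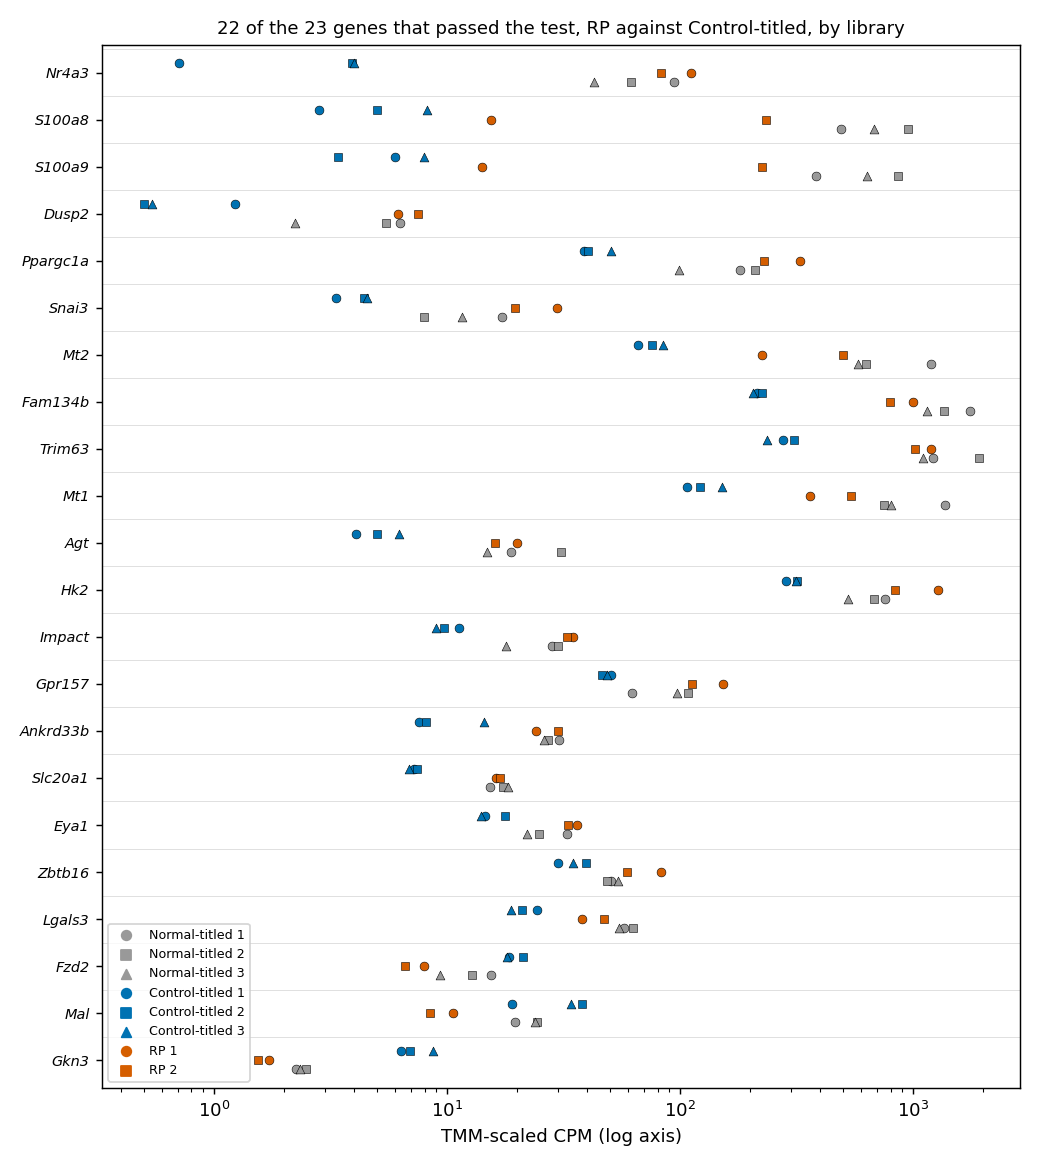
Levels of 22 of the 23 genes that passed the test, in CPM on a log axis, with 1 point per library (blue Control-titled, orange RP, grey Normal-titled; circle, square and triangle for replicates 1, 2 and 3). No orange point overlaps the blue ones in any row, and the 2 orange points of S100a8 and S100a9 lie far apart.

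Trim63, the ligase of sarcomeric proteins (chromosome 4, 134315120 to 134329629, build GRCm38), was higher in RP. Its level was 278, 308 and 237 CPM in Control 1, 2 and 3 and 1188 and 1021 CPM in RP 1 and 2. Both RP libraries thus stood above every Control-titled one, at 4.03 times their mean. The log2 change was 2.01 ± 0.22 (SE), adjusted p = 0.00173. The Normal-titled libraries held 1222, 1912 and 1098 CPM, a range that the RP libraries overlapped (log2 RP minus Normal-titled -0.35, adjusted p = 0.467). The 250 bases before its RefSeq start are shown because FoxO factors are its best known regulators. The stretch is chr4:134314870-134315119, plus strand, GRCm38.p6, and the capitals mark a FoxO element on the minus strand (GTAAACA, here read as its complement).
Trim63: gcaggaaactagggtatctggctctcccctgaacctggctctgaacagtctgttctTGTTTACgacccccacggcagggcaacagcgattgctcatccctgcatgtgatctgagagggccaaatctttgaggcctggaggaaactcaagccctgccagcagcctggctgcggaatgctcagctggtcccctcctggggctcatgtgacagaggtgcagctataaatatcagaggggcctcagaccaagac
The element began 194 bases before the start. GTAAACA was found on either strand in 3.09% of 27025 RefSeq promoters of this length, and Trim63 was the only holder among the 17 called genes with a promoter entry.

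Fbxo32, the F-box adaptor of the other classical ligase (chromosome 15, 58175879 to 58214892), lay just outside the threshold. It was at 174, 172 and 151 CPM in the Control-titled libraries and 400 and 404 CPM in RP, with no overlap. The log2 change was 1.28 ± 0.23 (SE), adjusted p = 0.0512. It passed in 2 of the 8 fits that left out a library, those without Normal 1 and without Normal 3. Against the Normal-titled libraries, at 719, 1248 and 1463 CPM, both RP libraries were lower (log2 -1.51, adjusted p = 0.00658). RP levels of Fbxo32 were thus between those of the other groups, whereas those of Trim63 overlapped the Normal-titled range. An antisense gene, Gm15943, overlaps Fbxo32, and the strand counted is not given in the sources used here, so reads of the pair cannot be told apart. The same limit holds for Hk2, Mt2, Snai3, Slc20a1, Ikbkb, Foxo1, Actc1, Dbp, Mbp, Cldn19, Sfrp2, Nfatc1 and Nos1, each of which another gene overlaps on the opposite strand. The transcript ends of Ikbkb and Foxo1 also share sequence with other genes.

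Of 27 tested ligases and adaptors linked to muscle atrophy, 1 was called higher (Trim63) and none lower, beside 0.144% and 0.0304% of all genes. The list's median log2 change was 0.22, against -0.0038 over all genes tested. At an unadjusted p under 0.05, 9 members were higher and 1 lower, beside 3.95% and 5.03% of all genes (8.98% in either direction). Klhl40, a Kelch adaptor that stabilises thin-filament proteins, was at 133, 174 and 121 CPM in the Control-titled libraries and 218 and 370 CPM in RP (adjusted p = 0.326). Trim54 (MuRF3) was at 109, 106 and 96.4 CPM against 152 and 138 CPM (adjusted p = 0.334). Fbxo21 went the other way, at 19.8, 16.8 and 18.9 CPM against 10.8 and 14.1 CPM (adjusted p = 0.392). None of these 3 passed the test.

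**Figure D3:**
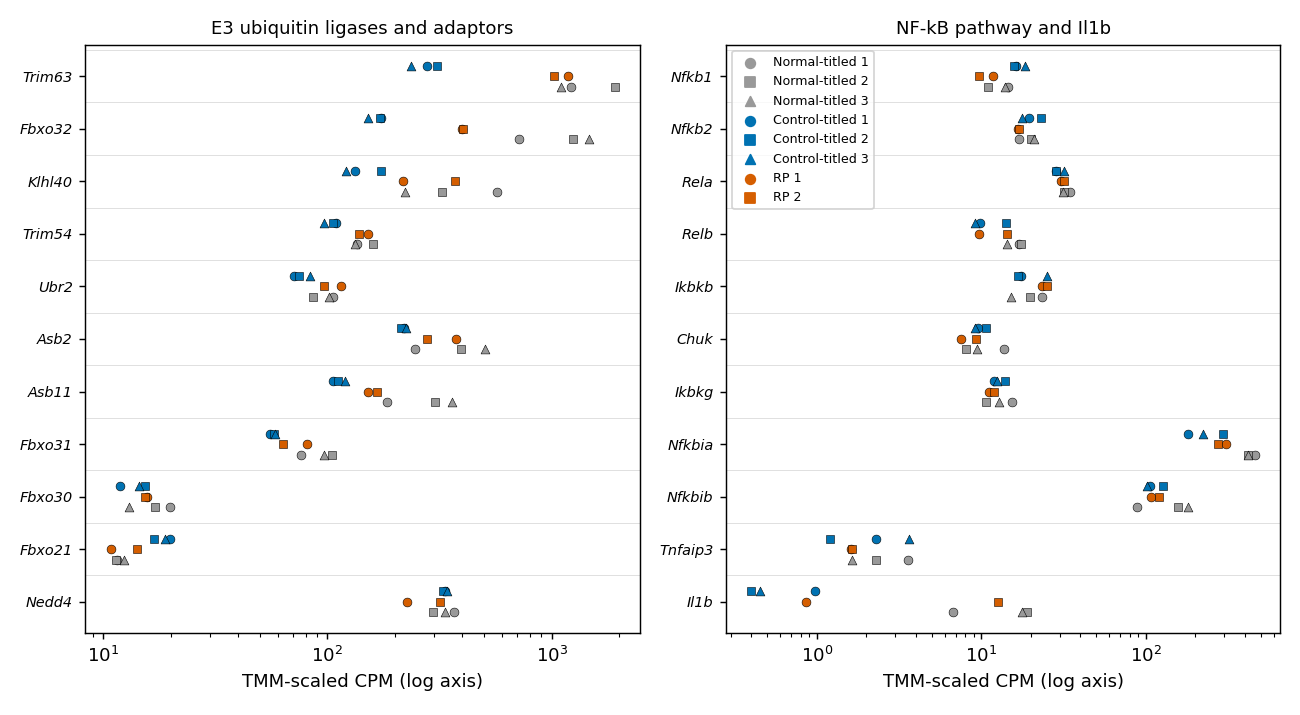
CPM per library on log axes for 11 ligases and adaptors (left) and 11 NF-kB pathway genes including Il1b (right), with colours by titled group and markers by replicate. The genes drawn were picked with their values known. The 2 RP points of Trim63 and Fbxo32 stand to the right of the 3 Control-titled points, while those of Rela, Relb and Nfkbib fall among them or beside them.

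The NF-kB list showed no called gene in either direction among 41 tested members, and its median log2 change was 0.01 (0.16 without RP 1 and -0.06 without RP 2). Unadjusted p-values were under 0.05 for 2 of the 41 members in each direction, near the shares of all genes, 3.95% higher and 5.03% lower. Among the subunits, Rela (p65) was at 28.7, 28.6 and 31.9 CPM in the Control-titled libraries and 30.6 and 32.1 CPM in RP (log2 0.08 ± 0.15 SE, adjusted p = 0.928). Nfkb1 (p105/p50) was at 16.3, 15.8 and 18.4 CPM against 11.9 and 9.77 CPM, so that both RP libraries lay below all 3 others (log2 -0.64 ± 0.21 SE, adjusted p = 0.341). Nfkb2 had a log2 change of -0.25 and Relb of 0.13. Of the kinase subunits, Ikbkb had a log2 change of 0.30, Chuk of -0.22 and Ikbkg of -0.14. Nfkbia, the IkB protein that NF-kB itself induces, was at 181, 295 and 225 CPM against 309 and 278 CPM (log2 0.33 ± 0.19 SE, adjusted p = 0.662). The mRNA of a pathway gene does not measure the pathway's activity, which works through protein turnover and nuclear entry. Il1b, an inflammatory cytokine and NF-kB target, was at 0.97, 0.4 and 0.452 CPM in the Control-titled libraries, 0.862 CPM in RP 1 and 12.7 CPM in RP 2, with overlapping groups (adjusted p = 0.188). Its value in RP 2 alone was above the Control-titled range. Rel, Tnf, Il6 and Ptgs2 were too low to be tested.

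Fam134b (Retreg1 in RefSeq; chromosome 15, 25843298 to 25973696) encodes a receptor that delivers endoplasmic reticulum to autophagosomes. It was at 214, 224 and 206 CPM in the Control-titled libraries and 996 and 797 CPM in RP. The change was 2.06 ± 0.19 (SE) on the log2 scale, adjusted p = 0.000383, and the 3 Control-titled values were within a narrow band far below both RP values. The Normal-titled libraries were at 1752, 1357 and 1150 CPM, above both RP libraries (log2 -0.66, adjusted p = 0.0912). Among 34 tested genes of autophagy and the lysosome Fam134b was the 1 called, beside 0.144% of all genes called higher. The list's median was 0.09. Ulk1, the kinase that starts autophagy, was at 61.1, 51.3 and 47.5 CPM against 79.2 and 65.3 CPM (adjusted p = 0.42). Of 37 proteasome and ubiquitin genes none was called, 18 had both RP libraries above all Control-titled ones, and the median was 0.12. Of all genes, 15.3% stood apart in that direction.

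Sequences before a RefSeq start of 4 further called genes are shown because they hold elements of known inducible pathways. For Nr4a3 and Mt1 that start, at 48045305 and 94179089, lies inside the span printed for the gene, and so do their windows. Of the 250 bases before the start, annotated exons cover 250 in Mt2, 152 in Nr4a3, 118 in Fam134b (promoter 1) and 7 in Mt1. For Nr4a3 and Fam134b the capitals mark cyclic AMP response elements (TGACG or its complement CGTCA, and the full TGACGTCA), which CREB family factors bind. For Mt1 and Mt2 they mark the metal response element core TGCACNC, which the zinc sensor MTF1 binds, on the plus strand in Mt1 and on the minus strand in Mt2. The windows are 30 bases each on the plus strand of GRCm38.p6: Nr4a3 at chr4:48045087-48045116, Fam134b at chr15:25843145-25843174, Mt1 at chr8:94179059-94179088 and Mt2 at chr8:94172563-94172592.
Nr4a3: catgtCGTCAcatTGACGtctcgcattcca
Fam134b: aggccTGACGTCAcaaggcacccagccgcc
Mt1: cccgctgTGCACACtggcgctccagggagc
Mt2: agggcGTGTGCAggctctgtcccacgagca
The full element was in 1.62% of the 27025 promoters, the short element TGACG in 17.9% and the metal core TGCACNC in 10.2%, on either strand. The full element contains the short element, so a promoter with the first is also counted for the second. Among the 17 called genes with an entry, 1 held the full element (Fam134b) and 7 the short element (Fam134b, Ankrd33b, Slc20a1, Nr4a3, Ppargc1a, Hk2 and Mt1). The A-form metal core was in 4 (Nr4a3, Gpr157, Mt2 and Mt1). A kB site, searched as GGG and CC with any 5 bases between them, was in 11 of the 17, beside 45.4% of all promoters. A called gene was counted if any of its promoters held the element, and Fam134b has 4 and Slc20a1 has 2. The shares over all promoters are per promoter, so the 2 measures are not alike. The match of letters is a description and says nothing of a factor bound there.

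Nr4a3, an orphan nuclear receptor that exercise and adrenergic signals induce in muscle (chromosome 4, 48045078 to 48086447), had the largest log2 change of the 23. It was at 0.706, 3.9 and 3.98 CPM in the Control-titled libraries and 111 and 82.5 CPM in RP. These are 8, 39 and 44 counts against 1030 and 802 counts, so the lower levels rest on few counts. The log2 change was 5.09 ± 0.45 (SE), adjusted p = 0.000383, and RP lay at 33.8 times the Control-titled mean. The Normal-titled libraries were at 93.8, 61.8 and 42.5 CPM, a range the RP libraries overlapped (adjusted p = 0.488). Of 30 tested immediate-early genes, Nr4a3 was the 1 called, beside 0.144% of all genes called higher. The list's median was 0.17, with 0.33 without RP 1, -0.29 without RP 2 and 0.26 without Control 2. Maff and Nfil3, both leucine zipper factors, had adjusted p = 0.0512 and 0.0612. Fosb was at 9, 17.6 and 3.44 CPM against 3.56 and 5.04 CPM, with overlapping groups (log2 -1.21, adjusted p = 0.544).

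Ppargc1a encodes PGC-1alpha, the coactivator that drives mitochondrial biogenesis in exercised and cold-exposed tissue. It was at 38.5, 40.2 and 50.4 CPM in the Control-titled libraries and 328 and 229 CPM in RP. The RP libraries were 6.46 times the Control-titled mean (log2 2.69 ± 0.27 SE, adjusted p = 0.000774). They also stood above the Normal-titled 180, 209 and 98.7 CPM, though that difference did not pass (log2 0.77, adjusted p = 0.147). The gene spans chromosome 5, 51454249 to 52115853, with several starts. Of the 250 bases before the RefSeq start inside that span, 249 are printed, without the base next to the start. The stretch is chr5:51567727-51567975, minus strand, printed because Ppargc1a is a known CREB target. The capitals mark its short element, TGACG, read on the opposite strand, 49 bases before the start.
Ppargc1a: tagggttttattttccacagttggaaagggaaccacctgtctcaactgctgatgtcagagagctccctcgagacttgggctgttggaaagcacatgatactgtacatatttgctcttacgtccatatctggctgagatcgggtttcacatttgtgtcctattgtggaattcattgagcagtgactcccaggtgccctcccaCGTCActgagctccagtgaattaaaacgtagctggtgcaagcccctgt
Of 23 mitochondrial biogenesis regulators tested, Ppargc1a was the 1 called, beside 0.144% of all genes called higher. The list's median was 0.17 (0.09 without RP 1 and 0.28 without RP 2). Perm1, a muscle regulator that acts with PGC-1alpha, was at 123, 122 and 139 CPM against 217 and 159 CPM (log2 0.55, adjusted p = 0.334). Among 73 oxidative phosphorylation genes none was called. Their median was 0.16, and 42 had both RP libraries above all Control-titled ones, while 1 had both below, against 15.3% and 16.4% of all genes. That member was Sdhd, a subunit of succinate dehydrogenase, at 177, 136 and 193 CPM against 47 and 114 CPM (log2 -1.07, adjusted p = 0.278). Summed over the list, the levels were 54610 and 54280 CPM in RP, 47610 to 50020 CPM in the Control-titled and 38500 to 44130 CPM in the Normal-titled libraries. RP thus lay above both other groups in this sum.

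Hk2, the muscle hexokinase that traps glucose in the cell (chromosome 6, 82725025 to 82774454), was at 284, 317 and 314 CPM in the Control-titled libraries and 1276 and 834 CPM in RP. Its log2 change was 1.79 ± 0.20 (SE), adjusted p = 0.00173. RP values were also above the Normal-titled 753, 679 and 527 CPM (log2 0.69, adjusted p = 0.0912, not past the threshold). Ppp1r3c, which targets a phosphatase to glycogen, was at 224, 246 and 288 CPM against 1025 and 798 CPM, a difference of similar size that missed the threshold (log2 1.85, adjusted p = 0.0512). Of 35 genes of glycolysis and glycogen Hk2 was the 1 called, beside 0.144% of all genes called higher. The list's median was 0.19 (0.10 without RP 1). No gene was called among 39 of fatty acid oxidation (median 0.15). Ucp3, a mitochondrial carrier of that list, was at 53.3, 36.8 and 31.2 CPM against 58.1 and 74.3 CPM (adjusted p = 0.278).

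Impact and Snai3 were the remaining genes called in all 8 fits with a library left out. Impact inhibits the amino acid sensing kinase GCN2 (chromosome 18, 12954690 to 12992950). It was at 11.2, 9.7 and 8.95 CPM in the Control-titled libraries and 34.6 and 32.6 CPM in RP (log2 1.75 ± 0.22 SE, adjusted p = 0.00425). The RP values were close to each other and stood well above the 3 Control-titled ones. Impact was the 1 called among 19 genes of the integrated stress response, beside 0.144% of all genes called higher. The list's median was -0.01 and took either sign when 1 library was left out (-0.01 to 0.09). Slc38a2, an amino acid transporter outside the threshold, was at 56.8, 68.5 and 60.2 CPM against 197 and 200 CPM (log2 1.68, adjusted p = 0.0755). Snai3, a Snail family repressor (chromosome 8, 122454204 to 122460809), was at 3.35, 4.4 and 4.52 CPM against 29.5 and 19.6 CPM (log2 2.58 ± 0.31 SE, adjusted p = 0.0029). The Normal-titled libraries held 17.3, 7.95 and 11.6 CPM, below both RP libraries (log2 1.00, adjusted p = 0.091). Gm20388 overlaps Snai3 on the opposite strand.

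Mt1 and Mt2 encode metallothioneins, small proteins that bind zinc and copper and are induced by metals, glucocorticoids and inflammation. Mt1 (chromosome 8, 94178883 to 94180327) was at 107, 121 and 151 CPM in the Control-titled libraries and 360 and 542 CPM in RP. Mt2 (94172618 to 94173567) was at 65.8, 75.7 and 84.3 CPM against 224 and 498 CPM. Both were higher in each RP library than in any Control-titled one, and higher in RP 2 than in RP 1. The log2 changes were 1.84 ± 0.26 and 2.26 ± 0.33 (SE), with adjusted p = 0.0146 and 0.0155. Normal-titled levels were higher still, at 1375, 747 and 803 CPM for Mt1 and 1190, 630 and 582 CPM for Mt2 (adjusted p = 0.052 and 0.0951). Mt1 was not called without Control 1, Control 2 or RP 2 (adjusted p = 0.0729, 0.112 and 0.0741). Mt2 was not called without Control 1, 2 or 3 or without RP 2 (0.0729, 0.112, 0.107 and 0.0809). Among 12 tested metallothionein and zinc transport genes these were the only 2 called, beside 0.144% of all genes called higher. The median was 0.14 (0.08 without RP 2).

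Mt1 and Mt2 are also counted in the list of glucocorticoid-responsive genes. In it 3 of 25 tested members were called, all higher, beside 0.144% of all genes, and the median was 0.34. The third was Zbtb16 (PLZF; chromosome 9, 48651797 to 48836225), a zinc finger factor, at 29.9, 39.6 and 34.7 CPM in the Control-titled libraries and 82.4 and 59.4 CPM in RP. Its log2 change was 1.03 ± 0.18 (SE), adjusted p = 0.0404. It was lost without Normal 2 (0.0829), Control 1, 2 or 3 (0.18, 0.119 and 0.245) or RP 1 (0.306). Fkbp5, a chaperone of the glucocorticoid receptor and a standard target of it, was at 33.8, 42.6 and 29.7 CPM against 69.3 and 70.5 CPM (log2 0.98, adjusted p = 0.2). Cebpd was at 97.1, 105 and 59.2 CPM against 143 and 193 CPM (adjusted p = 0.219). In this list 12 members had both RP libraries above the Control-titled ones and none had both below, against 15.3% and 16.4% of all genes. The FoxO list, which also holds Mt1 and Mt2, had no other called gene among 25 tested (median 0.34, and 0.21 without RP 2). In the FoxO list 14 members had both RP libraries above the Control-titled ones and 2 had both below, so such a shift was not particular to the glucocorticoid list. Trim63, called higher and named above as largely FoxO-driven, is counted in the ligase list and not in this one. Foxo1 itself was at 30.7, 40.4 and 46.6 CPM against 68.7 and 53.3 CPM (adjusted p = 0.366).

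S100a8 and S100a9, the subunits of calprotectin that fill the neutrophil cytoplasm, were called higher, and their level came mainly from RP 2. S100a8 (chromosome 3, 90669071 to 90670034) was at 2.82, 5 and 8.23 CPM in the Control-titled libraries, 15.4 CPM in RP 1 and 233 CPM in RP 2. S100a9 (90692630 to 90695721) was at 6, 3.4 and 7.96 CPM, 14.1 CPM and 225 CPM. The Normal-titled libraries held 492 to 948 CPM of S100a8 and 382 to 860 CPM of S100a9. The log2 changes were 4.53 ± 0.77 and 4.36 ± 0.77 (SE), with adjusted p = 0.0403 and 0.0434. Without RP 2 they were 1.53 and 1.28 (adjusted p = 0.289 and 0.428), so the calls did not stand on RP 1 alone. Calls were also lost without Normal 2 (0.0825 and 0.0879) and without Control 1 (0.167 and 0.169), Control 2 (0.186 and 0.203) or Control 3 (0.201 and 0.245).

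The whole neutrophil list showed the same split between the RP libraries. The summed level of its markers was 26.3 to 48.5 CPM in the Control-titled libraries, 48.5 CPM in RP 1, 550 CPM in RP 2 and 1039 to 2108 CPM in the Normal-titled libraries. RP 1 was thus at the upper end of the Control-titled range. Elane and Mpo, the granule enzymes of young neutrophils, had no count in any RP or Control-titled library. The median log2 change over 20 tested members was 3.55, and it was 4.47 without RP 1 and 0 without RP 2. It was 2.88 with the 4 members lacking a Control-titled count set at the bound that 3 counts over the group allow. The filter used all 8 libraries, so those 4 members passed it only through RP or Normal-titled libraries. The median is thus partly set by that choice of members. Of the 20, 6 had both RP libraries above all Control-titled ones and none had both below, against 15.3% and 16.4% of all genes. In bulk muscle, fewer cells of a type and less RNA per cell cannot be told apart. Red-cell genes also split: 20 tested members summed to 9464 CPM in RP 1, 40470 CPM in RP 2 and 13300 to 16740 CPM in the Control-titled libraries, with none called. Their median was 0.78, with 1.47 without RP 1 and -0.37 without RP 2. Hba-a1, an alpha globin whose reads can be shared with Hba-a2, was at 5296, 6716 and 5229 CPM against 3741 and 14680 CPM (adjusted p = 0.784). The part of blood content in the other differences was not tested beyond removing haemoglobin genes and Rn45s, which left 29 genes called, among them all 23. Of 28 macrophage and monocyte markers none was called, and the median was -0.08, with 0.16 without RP 1, -0.35 without RP 2, 0.03 without Control 1 and -0.12 without Control 2.

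Lgals3, Agt, Eya1, Ankrd33b, Slc20a1, Dusp2 and Gpr157 were the other genes called higher. Of these, Lgals3, Ankrd33b, Slc20a1, Dusp2 and Gpr157 fell outside the rule for named genes and are named with their values known. Agt, the angiotensin precursor (chromosome 8, 124556587 to 124569706), was at 4.06, 5 and 6.24 CPM in the Control-titled libraries and 19.9 and 16 CPM in RP (log2 1.82 ± 0.30 SE, adjusted p = 0.0372). Eya1, a transcriptional coactivator of the fast-fibre programme (chromosome 1, 14168953 to 14311035), was at 14.6, 17.8 and 14 CPM against 36.1 and 33 CPM (log2 1.16 ± 0.20 SE, adjusted p = 0.0403). It was the 1 called among 24 fast-fibre genes, beside 0.144% of all genes called higher. The list's median was 0.18 (0.10 without RP 1). Lgals3, the lectin galectin-3, was at 24.3, 20.9 and 18.9 CPM against 38 and 47.3 CPM, the smallest change of the 23 (log2 1.00 ± 0.17 SE, adjusted p = 0.0403). Slc20a1, a phosphate transporter, was at 7.23, 7.4 and 6.87 CPM against 16.2 and 16.9 CPM (log2 1.20, adjusted p = 0.0311). Both groups of Slc20a1 were tight, and the Normal-titled libraries, at 15.2, 17.3 and 18.3 CPM, overlapped RP.

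Ankrd33b was at 7.58, 8.1 and 14.4 CPM in the Control-titled libraries and 24 and 29.9 CPM in RP (log2 1.43, adjusted p = 0.0434). Dusp2, a phosphatase of MAP kinases, had 14, 5 and 6 counts against 57 and 73 counts (log2 3.13, adjusted p = 0.0311), the lowest mean level of the 23. Gpr157 was at 50.3, 46.3 and 48.5 CPM against 152 and 112 CPM (log2 1.45, adjusted p = 0.0164), but the end of its transcript shares sequence with many genes, so its reads may belong to others. None of these 7 was called throughout when 1 library was left out. Agt was lost without Control 1, 2 or 3 (0.145, 0.151 and 0.123) or RP 1 or 2 (0.179 and 0.0516). Eya1 was lost without Normal 2 (0.0775), Control 1, 2 or 3 (0.169, 0.112 and 0.247) or RP 1 or 2 (0.193 and 0.0802). Lgals3 was lost without Normal 2 (0.0775), Control 1, 2 or 3 (0.0729, 0.185 and 0.247) or RP 2 (0.194). Gpr157 was lost without Control 1, 2 or 3 (0.0728, 0.131 and 0.133) or RP 1 (0.132). Ankrd33b was lost without Normal 2, Control 1, Control 2 and either RP library (0.075 to 0.195), Dusp2 without Normal 2, Control 2, Control 3 and either RP library (0.0576 to 0.201), and Slc20a1 without Normal 2 and any Control-titled or RP library (0.0679 to 0.201).

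Mal encodes a proteolipid of myelin, the sheath that Schwann cells lay around motor and sensory axons, and was lower in RP (chromosome 2, 127633226 to 127656695). It was at 19.1, 37.8 and 34 CPM in the Control-titled libraries and 10.6 and 8.43 CPM in RP. Control 1 was the lowest of its group, and both RP libraries lay below it. The log2 change was -1.67 ± 0.28 (SE), adjusted p = 0.0375. The Normal-titled libraries held 19.5, 24.2 and 23.9 CPM, above both RP libraries (log2 -1.25, adjusted p = 0.0325). Mal was the 1 of the 23 that also differed from the Normal-titled libraries, where 2.50% of all genes did (1.67% higher and 0.835% lower).

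Other genes of Schwann cells and nerve stood on the same side. Of 19 tested, 2 were called lower and none higher, beside 0.0304% and 0.144% of all genes. The median log2 change was -0.96, and 14 had both RP libraries below all Control-titled ones, as did 16.4% of all genes. Mbp (myelin basic protein) was at 150, 384 and 282 CPM against 97.9 and 53.7 CPM (log2 -1.84, adjusted p = 0.0612). Pmp22, a membrane protein of compact myelin, was at 177, 247 and 252 CPM against 132 and 69.4 CPM (log2 -1.16, adjusted p = 0.103). Summed levels over the list were 814, 1536 and 1388 CPM in Control 1, 2 and 3, 547 and 316 CPM in RP and 674 to 875 CPM in the Normal-titled libraries. The amount of nerve in each sample is not in the labels, and its part in these values was not tested. Mal was lost without Normal 2 (0.0775), Control 2 or 3 (0.151 and 0.201) or RP 1 or 2 (0.126 and 0.173). Without RP 1 the list's median was -1.38, and without RP 2 it was -0.79.

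Fzd2, a Wnt receptor (chromosome 11, 102604431 to 102608058), was at 18.4, 21.1 and 18.1 CPM in the Control-titled libraries and 7.98 and 6.58 CPM in RP (log2 -1.40 ± 0.25 SE, adjusted p = 0.0434). Gkn3, a gastrokine family gene (chromosome 6, 87383319 to 87388935), was at 6.35, 6.9 and 8.68 CPM against 1.72 and 1.54 CPM (log2 -2.16 ± 0.35 SE, adjusted p = 0.0325). Normal-titled levels of Gkn3, 2.25 to 2.49 CPM, were near those of RP. Fzd2 was lost without Normal 2 (0.0879), Control 1, 2 or 3 (0.138, 0.185 and 0.201) or RP 1 or 2 (0.138 and 0.196). Gkn3 was lost without Normal 2 (0.0587), Control 1, 2 or 3 (0.0729, 0.131 and 0.201) or RP 1 or 2 (0.134 and 0.123).

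**Figure D4:**
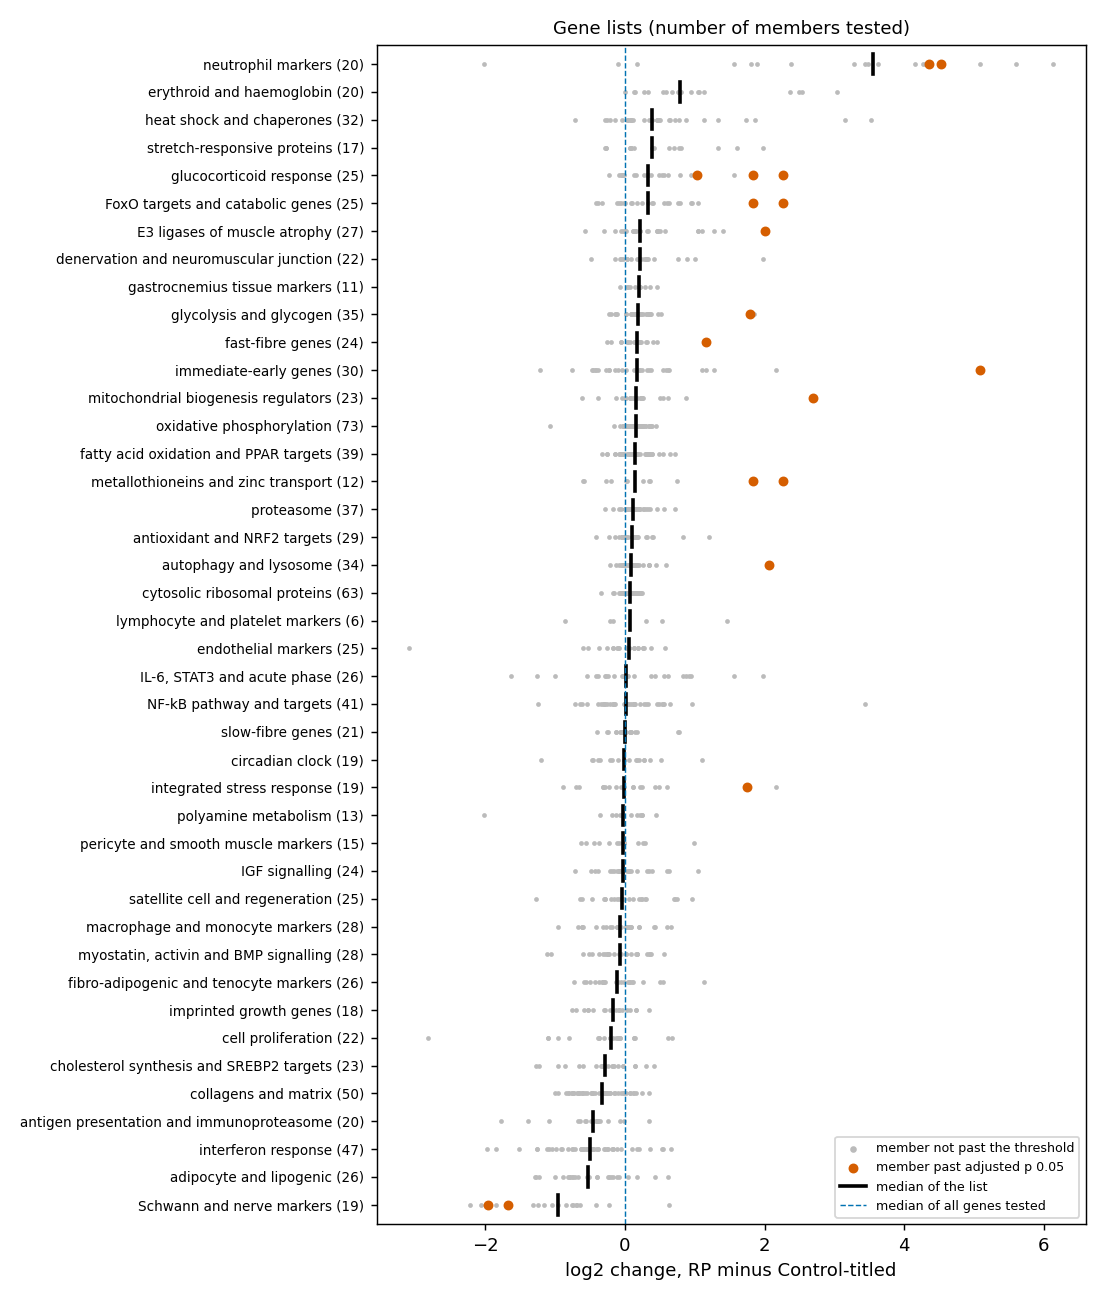
Log2 change (RP minus Control-titled) of every tested member of 42 gene lists, 1 point per gene, with called genes in orange, a black bar at each list's median and a dashed line at the median of all genes (-0.0038). The neutrophil median of 3.55 is the furthest to the right and the Schwann and nerve median of -0.96 the furthest to the left.

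Called genes were found in 12 of 42 lists, so most lists held values without a call. Interferon-response genes had a median of -0.50 over 47 tested members, with 15 members lower in both RP libraries than in all Control-titled ones and none higher, against 16.4% and 15.3% of all genes. Without Control 1 the median was -0.22. Bst2 (tetherin) was at 8.11, 7.1 and 8.59 CPM against 3.45 and 4.01 CPM (adjusted p = 0.234). Control 1 stood above the other libraries in this list: its mean level was 0.59 (log2 against the mean of the 8 libraries), with -0.04 and 0.15 in Control 2 and 3 and -0.03 and -0.16 in RP. Antigen presentation genes had a median of -0.45 over 20 members, 9 lower without overlap (16.4% of all genes) and none higher (15.3%). That median was -0.29 without RP 1 and -0.70 without RP 2. Psmb9, an immunoproteasome subunit, was at 18.7, 9.9 and 12.1 CPM against 3.23 and 7.1 CPM (adjusted p = 0.21). B2m, the light chain of MHC class I, was at 795, 625 and 791 CPM against 469 and 534 CPM (adjusted p = 0.302). None of either list passed the test.

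Adipocyte and lipogenic genes had a median of -0.53 over 26 members, 16 of which were lower in both RP libraries without overlap and 2 higher, against 16.4% and 15.3% of all genes. Without Control 3 the median was -0.34. Pparg, the master regulator of fat cells, was at 13.1, 13.4 and 24.1 CPM in the Control-titled libraries and 6.47 and 7.3 CPM in RP (log2 -1.29, adjusted p = 0.131). Adipoq, the fat cell hormone adiponectin, was at 127, 113 and 231 CPM against 73 and 83.5 CPM (log2 -1.01, adjusted p = 0.317). Control 3 was the highest for both. Cholesterol synthesis genes had a median of -0.29 over 23 members, with none called. Collagen and matrix genes had a median of -0.33 over 50 members, with 30 lower without overlap and none higher, against 16.4% and 15.3% of all genes. The median was -0.45 without RP 1 and -0.21 without RP 2. Col3a1 was at 1514, 1266 and 1435 CPM against 682 and 725 CPM (adjusted p = 0.522), and the Normal-titled libraries were lower still at 228, 294 and 63.3 CPM.

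Heat shock and chaperone genes lay the other way, with a median of 0.39 over 32 members, 17 higher without overlap and 1 lower (15.3% and 16.4% of all genes), and none called. Hspb8, a small heat shock protein of the chaperone-assisted autophagy of filamin, was at 611, 735 and 558 CPM in the Control-titled libraries and 1413 and 1374 CPM in RP (log2 1.14, adjusted p = 0.123). Hspa1a, the inducible Hsp70, was at 8.64, 69.5 and 26.9 CPM against 127 and 497 CPM (log2 3.16, adjusted p = 0.366) and ranged from 14.8 to 767 CPM in the Normal-titled libraries. The spread of Hspa1a within each group was thus severalfold. Stretch-responsive genes had a median of 0.38 over 17 members, with none called, and 0.58 without Control 2, 0.20 without Control 3 and 0.19 without RP 2. Ankrd1, a titin-binding stress protein of that list, was at 10.1, 109 and 24.9 CPM against 54.4 and 322 CPM, with overlapping groups (adjusted p = 0.522).

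**Figure D5:**
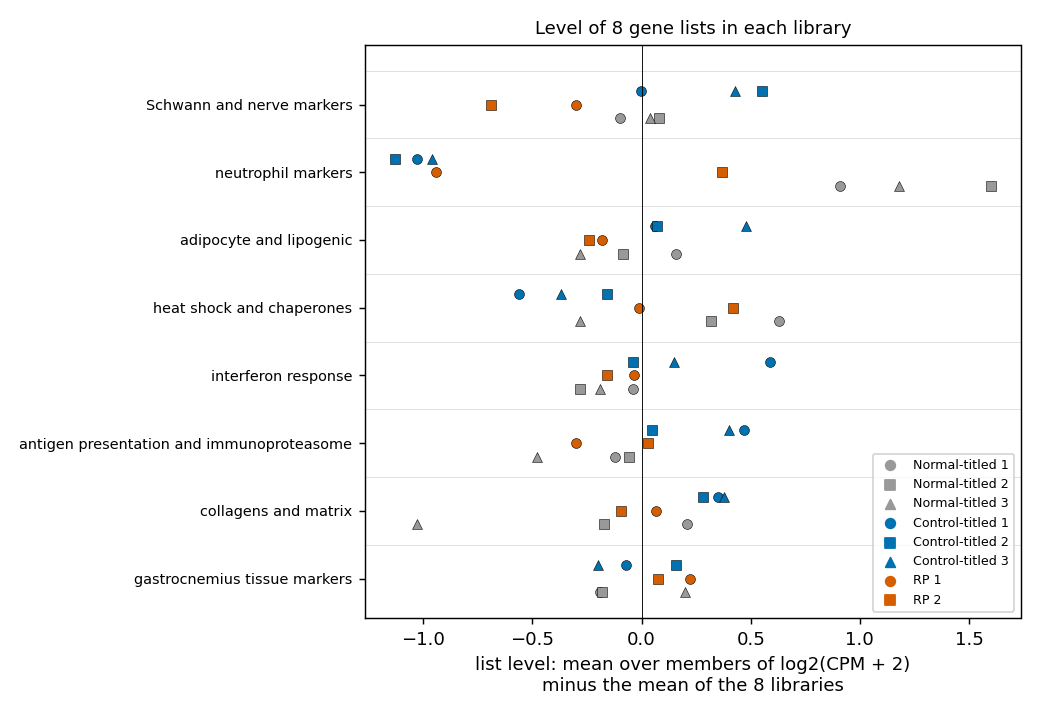
Level of 8 gene lists in each library, as the mean over tested members of log2(CPM + 2) minus the mean of the 8 libraries, with colours by titled group and markers by replicate. In the Schwann and nerve row both RP points (-0.30 and -0.69) are left of all others, and in the neutrophil row RP 1 (-0.94) lies by the Control-titled points while RP 2 (0.37) does not.

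Several genes with a known place in muscle wasting showed no call. Mstn, the growth inhibitor myostatin, was at 42, 38.5 and 39.1 CPM in the Control-titled libraries and 27.2 and 36.9 CPM in RP (log2 -0.31, adjusted p = 0.619). Actc1, the cardiac actin expressed in immature fibres, was at 1725, 1276 and 1248 CPM against 1090 and 726 CPM (log2 -0.64, adjusted p = 0.562). RP was far above the Normal-titled libraries for Actc1, which held 158, 149 and 70.7 CPM (log2 2.85, adjusted p = 0.000316). Cdkn1a, the cell cycle inhibitor p21, was at 12.1, 22.8 and 19.6 CPM against 28.1 and 25.2 CPM (log2 0.56, adjusted p = 0.544). Its Normal-titled levels were 79.5 to 119 CPM, above both RP libraries (log2 RP minus Normal-titled -1.95, adjusted p = 0.00143). On a log scale, both RP libraries were thus nearer the Control-titled group for Actc1 and Cdkn1a. Dbp, an output gene of the circadian clock, was at 172, 159 and 142 CPM against 116 and 114 CPM (adjusted p = 0.64). Its Normal-titled levels, 57.2, 32.2 and 26.4 CPM, were below both RP libraries (log2 RP minus Normal-titled 1.57, adjusted p = 0.00547). Myh4, the fast IIb myosin, whose transcript end shares sequence with Myh1 and Myh2, was at 11810, 14900 and 11460 CPM against 19730 and 15340 CPM (adjusted p = 0.572).

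Just outside the threshold, at adjusted p of 0.05 to 0.1, stood 28 genes, 18 higher and 10 lower in RP. At an adjusted p under 0.1 the count was 51, or 0.387% of genes (0.281% higher and 0.106% lower). The lower ones included the myelin genes Mbp, Cldn19, Ugt8a and Drp2. The transcript end of Drp2 shares sequence with many genes, Gpr157 among them, so its reads may belong to others. Cldn19 was at 3.62, 5.8 and 4.7 CPM against 1.29 and 0.72 CPM. Ugt8a, which makes the myelin lipid galactosylceramide, was at 4.23, 9.6 and 7.87 CPM against 1.83 and 1.13 CPM. Sfrp2, a secreted Wnt modulator of matrix cells, was at 13.3, 11.3 and 13.4 CPM against 3.23 and 3.91 CPM. The higher ones included Nfatc1, a calcineurin-dependent factor of slow fibres, at 23.9, 23.1 and 23.3 CPM against 56.2 and 41.2 CPM. Nos1, the muscle nitric oxide synthase, was at 48.3, 38.7 and 44.1 CPM against 107 and 83.9 CPM. These genes are named with their values known, and none passed the threshold of 0.05.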

How the data were processed

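Gastrocnemius RNA (500 ng per library) was sequenced from transcript 3' ends with the Lexogen QuantSeq kit, per the labels. The authors deposited raw read counts per gene symbol, 23282 rows per library; Bowtie2, edgeR and mm10 appear in the submitters' processing notes without roles, and counting, strand and annotation are not given in the sources used here. Rows with 1 of 35 repeated symbols (44 extra) were kept separate. Genes passing filterByExpr (13174) were fitted in edgeR 4.0.16 (R 4.3.3; TMM, glmQLFit, glmQLFTest, 8 libraries, 1 mean per titled group, common biological coefficient of variation 0.195), 2-sided, Benjamini-Hochberg adjusted over all genes, threshold 0.05. CPM are scaled by TMM. Without molecular identifiers, reads can be copies of 1 molecule. Positions came from RefSeq (12551 symbols matched directly, 584 by synonym, 39 unmatched), promoters from RefSeq GRCm38.p6 (17 of 23 called genes).

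Named genes were the 10 largest called changes per direction with a mean of at least 5 CPM and no overlap, up to 3 called members per list and 18 fixed genes. Other genes named beside a list's count were chosen after their values were seen. The comparison, the 42 lists (1056 tested genes) and the fixed genes were chosen with earlier results of these data known. The pipeline was tested on simulated counts. Alternatives were RLE and upper-quartile normalization, other filters, DESeq2 1.42.0, limma-voom (limma 3.58.1), the 2 groups alone, a replicate block, other thresholds and leaving out each library; removing haemoglobin genes and Rn45s was added after seeing the data. Where 1 RP library remained, its spread was taken from the other groups. A called gene and some others are not reported here. Figures used matplotlib 3.10.9.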

Additional observations from a re-analysis of the deposited data

How the results depend on the processing

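The count of 23 genes (19 higher, 4 lower) was 29 (24 and 5) with RLE and 22 (18 and 4) with upper-quartile normalization. It was 204 (109 and 95) with no filter, 11 (11 and 0) at a mean of at least 5 CPM, 112 (64 and 48) with DESeq2, 10 (10 and 0) with limma-voom and 121 (72 and 49) with the RP and Control-titled libraries alone. It was 51 (37 and 14) at a threshold of 0.1 and 7 (7 and 0) when edgeR tested against a fold of 1.5. All 23 were among those called with RLE, no filter, DESeq2 and the 2 groups alone, and 11, 10 and 7 of them at 5 CPM, with limma-voom and at the 1.5-fold test. Where no lower gene was called, unadjusted p was under 0.05, in either direction, for 883 (edgeR at 5 CPM), 1104 (limma-voom) and 337 genes (edgeR, 1.5-fold). Leaving out 1 library gave 8 to 72 genes, 7 to 51 higher and 0 to 22 lower; the 0 came without Normal 2 and without Control 3 (edgeR, 1105 and 740 genes at an unadjusted p under 0.05). The cause was not tested. With a replicate block 17 genes were called, 16 higher and 1 lower, 14 of them among the 23. For libraries sharing a number in the RP and Control-titled groups, deviations from the group mean correlated at r = -0.068 and -0.058. The 2 RP libraries deviate by equal and opposite amounts, so these values cannot decide whether the numbers pair libraries. Removing haemoglobin genes and Rn45s gave 29 (24 and 5). Hba-a1 had a log2 change of 1.35 without RP 1 and -0.62 without RP 2. Of the named genes' values under alternatives, 543 kept their direction and side of the threshold, 128 lost the call, 9 gained it and this 1 changed sign. Of the 42 list medians, 16 changed sign or fell to 0 without some 1 library, and a further 15 kept their sign but moved by over 1.5 times. With 2 RP libraries, genes of a few CPM, such as Dusp2 and Gkn3, have the least certain values.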

Other observations

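Clock and endothelial genes gave isolated values. Per3, a repressor of the circadian clock that the gene Camta1 overlaps on the same strand, was at 23.5, 22.1 and 21.2 CPM in the Control-titled libraries and 10.7 and 8.64 CPM in RP (log2 -1.21 ± 0.23 SE, adjusted p = 0.0612), while 19 tested clock genes had a median of -0.01 and none was called. Sox18, an endothelial transcription factor, was at 6.61, 4.1 and 6.96 CPM against 0.431 and 0.925 CPM (log2 -3.09 ± 0.64 SE, adjusted p = 0.0825). The 25 endothelial markers had a median of 0.06 and none was called, and Cdh5, their junction protein, was at 72, 65.9 and 78.6 CPM against 49.9 and 45.4 CPM (adjusted p = 0.264).

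Growth signalling lists held no call. Igf1, the growth factor that opposes atrophy, was at 173, 173 and 188 CPM in the Control-titled libraries and 106 and 111 CPM in RP (log2 -0.72, adjusted p = 0.341). Fst, the myostatin antagonist follistatin, was at 22.1, 14.8 and 22.9 CPM against 8.3 and 10.2 CPM (log2 -1.11, adjusted p = 0.334). The medians were -0.03 for 24 genes of IGF signalling, -0.08 for 28 of myostatin, activin and BMP signalling, 0.22 for 22 of denervation and the neuromuscular junction, -0.04 for 25 of satellite cells, -0.17 for 18 imprinted growth genes and -0.19 for 22 of proliferation. Further lists without a call had medians of -0.0019 (21 slow-fibre genes), 0.02 (26 of IL-6 and the acute phase), -0.11 (26 of fibro-adipogenic cells and tenocytes), -0.03 (15 of pericytes and smooth muscle), 0.07 (6 of lymphocytes and platelets), -0.02 (13 of polyamine metabolism), 0.10 (29 of antioxidant genes), 0.08 (63 ribosomal proteins) and 0.20 (11 muscle markers). With a library left out, medians of either sign were found for the clock, endothelial, IGF, satellite cell, slow-fibre, IL-6, pericyte, lymphocyte, polyamine and ribosomal lists.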
